A study of Caenorhabditis elegans with 12 samples.

Results

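Ribosome footprints of larvae of the nematode Caenorhabditis elegans that lack the caspase CED-3, ced-3(n717), were compared gene by gene with those of larvae that lack the p38 MAP kinase PMK-1, pmk-1(km25). The comparison rests on 4 libraries of ribosome-protected fragments (RPF), 2 per mutant, out of 12 libraries in the series. The 2 RPF libraries of wild type N2 worms (WT) entered the same fit, and the 6 mRNA libraries of the same worm samples were set beside the footprints. Worms of every group were raised on OP50 bacteria and hatched without food over 24 h. They were then fed for 18 h at 20 °C, a time by which over 90% of WT worms were at the third larval stage (L3), and the labels give L3 as the stage of every group. Each mutant was 1 strain that carries its allele in all cells, and each library came from whole worms, so all tissues were read together. In such bulk samples fewer cells of a type and less RNA per cell cannot be told apart. The 2 replicates of a genotype are called biological and independent in the series, without a statement that they were separate cultures, so p-values measure the spread between these samples.

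Ribosome profiling sequences the short stretches of mRNA that a ribosome covers, so a gene's footprint count follows both the amount of its mRNA and how many ribosomes sit on it. CED-3 is the caspase that carries out programmed cell death in the worm. PMK-1 is the kinase at the end of a MAP kinase cascade that holds immune effector genes on in the gut and epidermis. Larvae of this species build a new collagen cuticle at each moult, and many cuticle and moulting genes are known to switch on and off once in every larval stage.

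Total counts were 6708805 to 10115985 per RPF library, of which 95.0% to 97.6% fell on protein coding genes. A count of 3 in 1 library was worth 0.301 to 0.404 CPM (counts scaled by library size, with the TMM method). Genes more than 2-fold apart between replicates numbered 1437 in the ced-3 pair, 1040 in the pmk-1 pair and 521 in the WT pair. Both mutants held a library that stood apart in cuticle genes. Among the genes called higher in ced-3, replicate 2 was above replicate 1 for 82.1% in ced-3 (median log2 difference 0.76), for 78.4% in pmk-1 (0.40) and for 26.96% in WT (-0.24). Among genes not called these shares were 51.1%, 48.5% and 51.3%. Replicate 1 of pmk-1 held most of the footprints of several matrix genes. Medians of the lists that rest on ced-3 replicate 2 or pmk-1 replicate 1 are also given without them.

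Of 12633 genes tested, 1088 differed between ced-3 and pmk-1 footprints at an adjusted p below 0.05 by edgeR's quasi-likelihood test (8.61%). These genes are called higher or lower below. In ced-3, 764 genes were higher (6.05%) and 324 were lower (2.56%). The higher genes were mostly strong differences, with a median log2 fold of 3.04 and 68.6% of them past 4-fold. The lower genes were mostly modest ones, with a median of -1.11, 15.1% past 4-fold and 38.3% under 2-fold. The higher genes took 5.01% and 9.28% of the footprints of the ced-3 libraries, against 0.855% and 1.2% of the pmk-1 and 1.97% and 1.68% of the WT libraries. The lower genes took 5.54% and 4.78% of the ced-3 libraries, against 10.9% and 9.53% of the pmk-1 and 8.55% and 8.81% of the WT libraries. The lowest adjusted p was 0.0121, and 3764 genes were at an unadjusted p below 0.05. The calls need the WT libraries in the fit: edgeR called 0 genes in a fit of both mutants alone, where 3223 were at an unadjusted p below 0.05. It also called 0 without either WT library and 0 without pmk-1 replicate 1, while DESeq2 called 1916 on all 6 libraries. For all 1088 genes the ced-3 and pmk-1 libraries did not overlap, which fixes the sign of the fold in these fits. Over all genes tested, 31.3% had both ced-3 libraries above both pmk-1 libraries and 31.4% had both below.

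**Figure D1:**
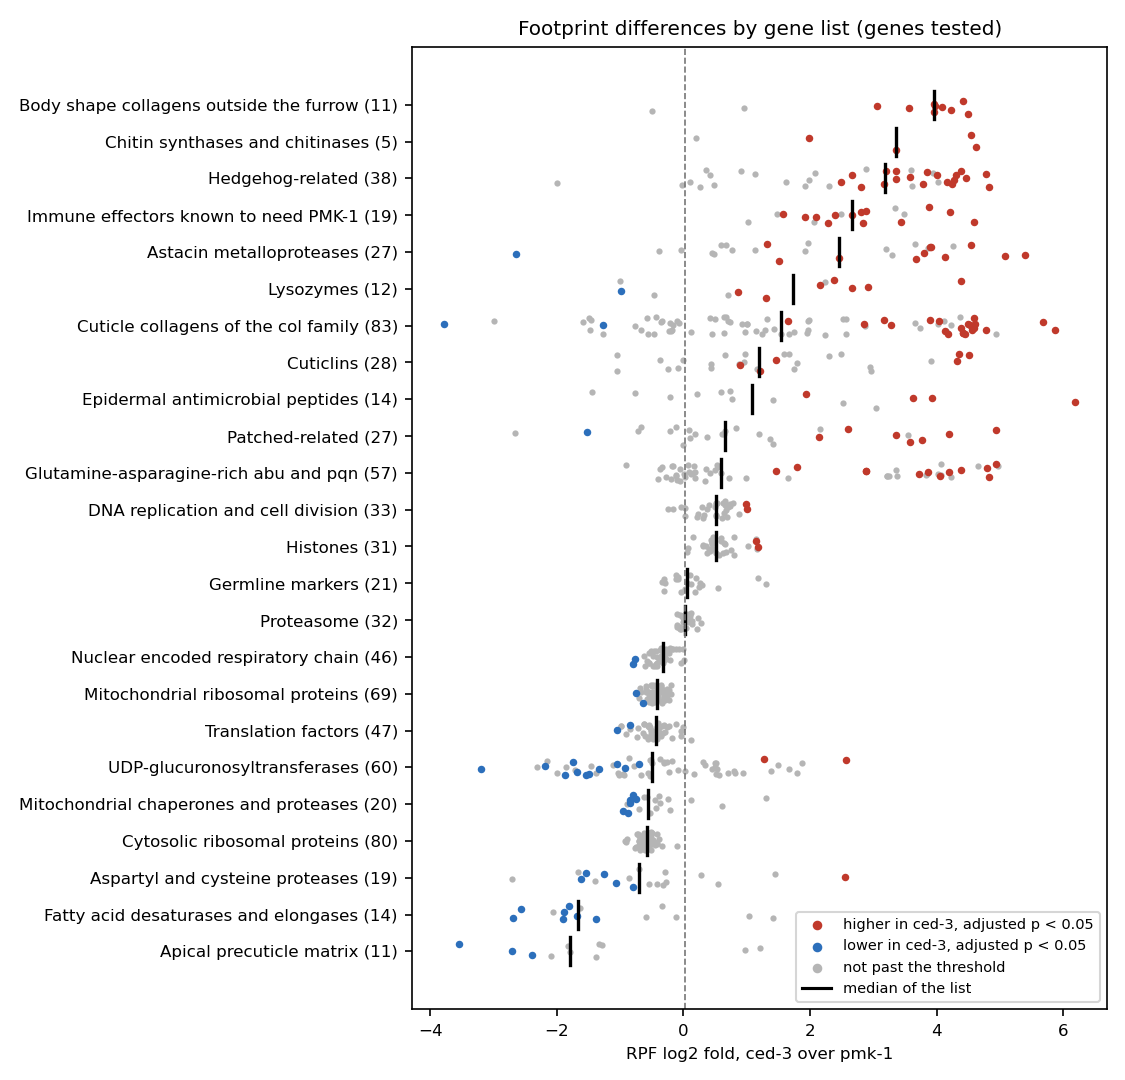
RPF log2 fold of ced-3 over pmk-1 for each tested gene of 24 gene lists, with called genes in red (higher) and blue (lower) and the list median as a black bar; the dashed line is the median of all tested genes, 0.02. Medians of most matrix, hedgehog-related and immune lists lie to the right, and fatty acid enzymes and precuticle genes to the left, while the 80 ribosomal protein genes form a narrow cloud just left of the line with no called gene.

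The mutated genes themselves were read first. Footprints of pmk-1 (chromosome IV, 8148794 to 8151266, WBcel235) were 42.6 and 48.5 CPM in ced-3, against 25 and 25.4 CPM in pmk-1 and 47.2 and 52.3 CPM in WT. Both ced-3 libraries lay near WT and above both pmk-1 libraries, with a log2 fold of 0.85 ± 0.15 (adjusted p = 0.0353), whereas the mRNA fold was 0.16 ± 0.11 (adjusted p = 0.374). The change of RPF beyond that of mRNA, tested by edgeR with the libraries of each worm sample paired, was 0.76 ± 0.16. It did not pass (adjusted p = 0.163), nor did it with the libraries unpaired. The ced-3 gene (chromosome IV, 13198261 to 13204137) had 5.32 and 3.9 CPM in ced-3, against 2.49 and 3.52 CPM in pmk-1 and 5.92 and 3.17 CPM in WT, with a log2 fold of 0.61 ± 0.41 (adjusted p = 0.362). Counts over a whole gene do not separate the part an allele changes, so these values do not test the genotype labels. Of 12 genes of the p38 pathway, 2 were called, both higher: pmk-1 and vhp-1, a phosphatase that switches off MAP kinases. Footprints of vhp-1 were 125 and 129 CPM in ced-3, against 54.1 and 58.6 CPM in pmk-1 and 117 and 77.4 CPM in WT (log2 fold 1.17 ± 0.22). Of 23 tested genes of cell death and engulfment, ces-1, a transcription factor that controls the death of sister cells of a pharyngeal neuron, was called higher at a low level (1.46 and 3.79 CPM in ced-3, against 0.217 and 0.402 CPM in pmk-1) and no other was called. Over all genes tested 8.61% were called.

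Immune effectors known to need PMK-1 had more footprints in ced-3 worms than in pmk-1 worms. All 19 tested genes had both ced-3 libraries above both pmk-1 libraries, as had 31.3% of all genes tested, and 13 of the 19 were called, all higher. Their median log2 fold was 2.67, against 0.02 over all genes, and their summed level was 1651 and 1118 CPM in ced-3, against 428 and 468 CPM in pmk-1 and 2582 and 2544 CPM in WT. The infection response gene irg-5 had 23.4 and 26.5 CPM in ced-3, against 1.95 and 2.61 CPM in pmk-1 and 42.9 and 41 CPM in WT (log2 fold 3.44 ± 0.22, adjusted p = 0.0121). Another infection response gene, irg-4, had 278 and 193 CPM in ced-3, against 31.9 and 32.3 CPM in pmk-1 and 441 and 406 CPM in WT (log2 fold 2.88 ± 0.22). The immune gene dod-24 had 28.2 and 30.1 CPM in ced-3, against 0.759 and 1.61 CPM in pmk-1 and 17.5 and 22.8 CPM in WT (log2 fold 4.60 ± 0.35, adjusted p = 0.0176). For irg-5 and irg-4 ced-3 worms lay between pmk-1 and WT, while for dod-24 they lay above WT. The smallest of these named differences was that of F55G11.2, with 29.3 and 27.4 CPM in ced-3, against 6.83 and 8.14 CPM in pmk-1 (log2 fold 1.92 ± 0.18).

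Lysozymes, enzymes that break bacterial cell walls, moved in both directions. Of 12 tested genes 7 were higher in ced-3 and 1 was lower (median 1.73). The gene lys-10 had 49.1 and 41.1 CPM in ced-3, against 2.38 and 1.91 CPM in pmk-1 and 9.01 and 11.43 CPM in WT (log2 fold 4.39 ± 0.25, adjusted p = 0.0121). For lys-7 the levels were 134 and 158 CPM in ced-3, against 15.3 and 23.2 CPM in pmk-1 and 43.3 and 64 CPM in WT (log2 fold 2.92 ± 0.29). Both genes had their highest levels in ced-3, and in pmk-1 both were below WT. The invertebrate-type lysozyme ilys-2 had 6.79 and 10.4 CPM in ced-3, against 1.95 and 1.91 CPM in pmk-1 and 1.08 and 1.59 CPM in WT, so that its pmk-1 libraries lay near those of WT and the ced-3 libraries stood above both. The list's summed level, 2201 and 1892 CPM in ced-3, against 1986 and 1541 CPM in pmk-1 and 2411 and 2332 CPM in WT, overlapped between the mutants.

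Peptides and lectins of the defence repertoire were mixed as well, where 6.05% of all genes tested were higher and 2.56% were lower. Of 14 epidermal antimicrobial peptide genes 4 were higher and none lower (median 1.09). The neuropeptide-like peptide nlp-30 had 22.6 and 50.3 CPM in ced-3, against 1.19 and 3.52 CPM in pmk-1 and 9.15 and 9.95 CPM in WT (log2 fold 3.94 ± 0.60), and nlp-31 had 31.7 and 33.9 CPM in ced-3, against 11.5 and 5.63 CPM in pmk-1 and 15.3 and 17.6 CPM in WT (log2 fold 1.94 ± 0.33). The caenacin peptide cnc-4 had 147 RPF counts over the ced-3 libraries and 2 over the pmk-1 libraries, a ratio of 84.2 with a 95% interval of 22.9 to 702 that covers counting error only. Of 21 saposin-like proteins, small lipid-binding proteins some of which kill microbes, 5 were higher and 1 lower (median 0.07). The lower one, spp-17, had 62 and 104.43 CPM in ced-3, against 355 and 316 CPM in pmk-1 and 164 and 293 CPM in WT (log2 fold -2.01 ± 0.37), so its ced-3 libraries lay under both other genotypes. Of 91 C-type lectins, carbohydrate-binding secreted proteins, 8 were higher and 5 lower (median -0.04), with clec-4 at 120 and 85.5 CPM in ced-3, against 14 and 28.5 CPM in pmk-1 and 229 and 192 CPM in WT (log2 fold 2.27 ± 0.38) and clec-1 at 66.9 and 54.5 CPM in ced-3, against 118 and 134 CPM in pmk-1 and 117 and 123.39 CPM in WT (log2 fold -1.05 ± 0.17). Of 41 glutathione S-transferases, enzymes of detoxification, 2 were higher and 1 lower (median -0.18), near the shares of all genes tested (6.05% and 2.56%). The higher gst-13 had 146 and 129 CPM in ced-3, against 60.8 and 59.5 CPM in pmk-1 and 229 and 211 CPM in WT (log2 fold 1.19 ± 0.15), and the lower gst-27 had 43 and 37.5 CPM in ced-3, against 108 and 72.9 CPM in pmk-1 (log2 fold -1.17 ± 0.22).

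Cuticle collagens were among the widest differences. Of 11 body shape collagens outside the furrows of the cuticle, 9 were called, all higher in ced-3, and the median was 3.96. The list's summed level was 4704 and 14462 CPM in ced-3, against 789 and 1108 CPM in pmk-1 and 1114 and 911 CPM in WT. If ced-3 replicate 2 was left out the median was 3.12, and without both ced-3 replicate 2 and pmk-1 replicate 1 it was 2.80 with 9 genes called. The collagen sqt-1 had 354 and 853 CPM in ced-3, against 30.1 and 40.7 CPM in pmk-1 and 47.6 and 32.6 CPM in WT (log2 fold 4.09 ± 0.51, adjusted p = 0.0322). Its partner collagen sqt-2 had 285 and 768 CPM in ced-3, against 29.9 and 37.6 CPM in pmk-1 and 40.6 and 30.2 CPM in WT (log2 fold 3.96 ± 0.53). For lon-3, a collagen that limits body length, the levels were 54.6 and 117 CPM in ced-3, against 4.77 and 6.23 CPM in pmk-1 and 7.27 and 4.66 CPM in WT (log2 fold 3.96 ± 0.47). In all 3 genes the pmk-1 libraries lay near WT, and ced-3 replicate 2 lay above replicate 1. The log2 fold of sqt-1 was 3.31 without ced-3 replicate 2. Of 83 tested genes of the larger col family, 21 were higher and 2 lower, with a median of 1.55. That median was 2.50 without pmk-1 replicate 2, with 46 genes called, and 1.02 without ced-3 replicate 2 and pmk-1 replicate 1. Among them col-173 had 28.2 and 85.4 CPM in ced-3, against 2.38 and 4.02 CPM in pmk-1 and 4.04 and 3.81 CPM in WT (log2 fold 4.14 ± 0.62), and col-131 had 171 RPF counts over the ced-3 libraries and 3 over the pmk-1 libraries, a ratio of 65.3 (95% interval 21.97 to 320, counting error only). In this family 36 genes were called without ced-3 replicate 2 and pmk-1 replicate 1, and 6 without ced-3 replicate 2 alone. All groups were taken after a single feeding time, so larval timing and genotype cannot be told apart for cuticle and moulting genes.

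Families of signalling and secreted proteins known from the epidermis had called members that were mostly higher in ced-3, while many members did not pass the test. Of 15 hypodermis and seam markers none was higher and 1 was lower (median -0.27). Of 38 hedgehog-related genes, which encode secreted proteins with a processing domain like that of Hedgehog or with short cysteine-rich domains, 19 were higher and none lower (median 3.18). Both ced-3 libraries were above both pmk-1 libraries for 32 of them, as for 31.3% of all genes tested. The gene wrt-9 had 49.6 and 109 CPM in ced-3, against 3.36 and 4.92 CPM in pmk-1 and 7.67 and 5.61 CPM in WT (log2 fold 4.25 ± 0.48), and grl-15 had 53.4 and 82.9 CPM in ced-3, against 1.19 and 3.52 CPM in pmk-1 and 3.77 and 2.75 CPM in WT (log2 fold 4.83 ± 0.51). The gene wrt-2 had 43.3 and 62.7 CPM in ced-3, against 6.29 and 5.22 CPM in pmk-1 and 3.23 and 1.9 CPM in WT (log2 fold 3.20 ± 0.31), so its pmk-1 libraries were also above WT. Of 27 patched-related membrane proteins 7 were higher and 1 lower (median 0.66), with ptr-20 at 57.1 and 116 CPM in ced-3, against 2.93 and 9.64 CPM in pmk-1 and the lower gene, ptr-25, at 29.8 and 23.5 CPM in ced-3, against 95.2 and 58.5 CPM in pmk-1. Of 28 cuticlins and cuticlin-like genes, which encode zona pellucida proteins of the cuticle, 6 were higher (median 1.19). Of 27 astacins, secreted metalloproteases several of which are needed to shed the old cuticle, 11 were higher and 1 lower (median 2.45). The astacin nas-14 had 17.4 and 50 CPM in ced-3, against 0.434 and 1.51 CPM in pmk-1 and 2.29 and 1.16 CPM in WT (log2 fold 5.08 ± 0.79, and 4.12 without ced-3 replicate 2). When ced-3 replicate 2 and pmk-1 replicate 1 were both left out, the median was 2.34 for hedgehog-related genes, with 21 called, and 1.38 for astacins, with 14 called.

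Genes of the moult itself split. Of 25 moulting regulators and enzymes 5 were higher and 2 lower (median 0.37). The moulting gene mlt-10 had 52.4 and 135 CPM in ced-3, against 6.07 and 8.54 CPM in pmk-1 and 6.32 and 7.73 CPM in WT (log2 fold 3.68 ± 0.51) and the protease inhibitor bli-5 had 9.72 and 27 CPM in ced-3, against 1.3 and 2.01 CPM in pmk-1 and 2.15 and 1.48 CPM in WT (log2 fold 3.46 ± 0.59). In the other direction peb-1, a DNA-binding protein needed for moulting, had 6.52 and 6.82 CPM in ced-3, against 76.6 and 27.7 CPM in pmk-1 and 10.1 and 13.8 CPM in WT (log2 fold -2.96 ± 0.53). Its footprints were highest in pmk-1 replicate 1, and its ced-3 libraries lay below WT. The median of the moulting list lay between -0.03 and 0.89 when 1 mutant library was left out.

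The apical precuticle, a temporary matrix laid down under the old cuticle before the new one, went the other way. None of 11 tested genes was higher in ced-3 and 3 were lower, with a median of -1.80. The fibrillin-related gene fbn-1 had 61 and 55.7 CPM in ced-3, against 1089 and 280 CPM in pmk-1 and 71 and 97.3 CPM in WT (log2 fold -3.55 ± 0.67, adjusted p = 0.0399), and sym-1, a leucine-rich repeat protein of this matrix, had 124 and 151 CPM in ced-3, against 1388 and 421 CPM in pmk-1 and 171 and 172 CPM in WT (log2 fold -2.71 ± 0.56). The third, let-653, a zona pellucida protein that shapes narrow tubes, had 64.2 and 35.1 CPM in ced-3, against 363 and 156 CPM in pmk-1 and 84.1 and 75.8 CPM in WT (log2 fold -2.39 ± 0.49). In all 3 genes pmk-1 replicate 1 was highest, pmk-1 replicate 2 was still above every ced-3 and WT library, and both ced-3 libraries lay under WT. Without pmk-1 replicate 1 the log2 fold of fbn-1 was -2.25 and the list median was -0.30. The summed level of the list was 885 and 1331 CPM in ced-3, against 6753 and 1753 CPM in pmk-1 and 655 and 635 CPM in WT, so that by sum ced-3 worms were above WT too. The mucin-like gene dpy-6 had 114 and 32.9 CPM in ced-3, against 942 and 525 CPM in pmk-1 and 234 and 320 CPM in WT (log2 fold -3.32 ± 0.66). None of the 6 furrow collagens was called by edgeR or DESeq2 or had an unadjusted p below 0.05, and their median was -0.89 with all libraries. It was 0.76 if pmk-1 replicate 1 was left out, and -1.62 if pmk-1 replicate 2 was, when edgeR called 5 of the 6. Footprints of the furrow collagen dpy-10 were 49.6 and 59.5 CPM in ced-3, against 234.65 and 45.3 CPM in pmk-1 and 12.5 and 16.1 CPM in WT, so that the ced-3 libraries lay between the 2 pmk-1 libraries and above WT.

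**Figure D2:**
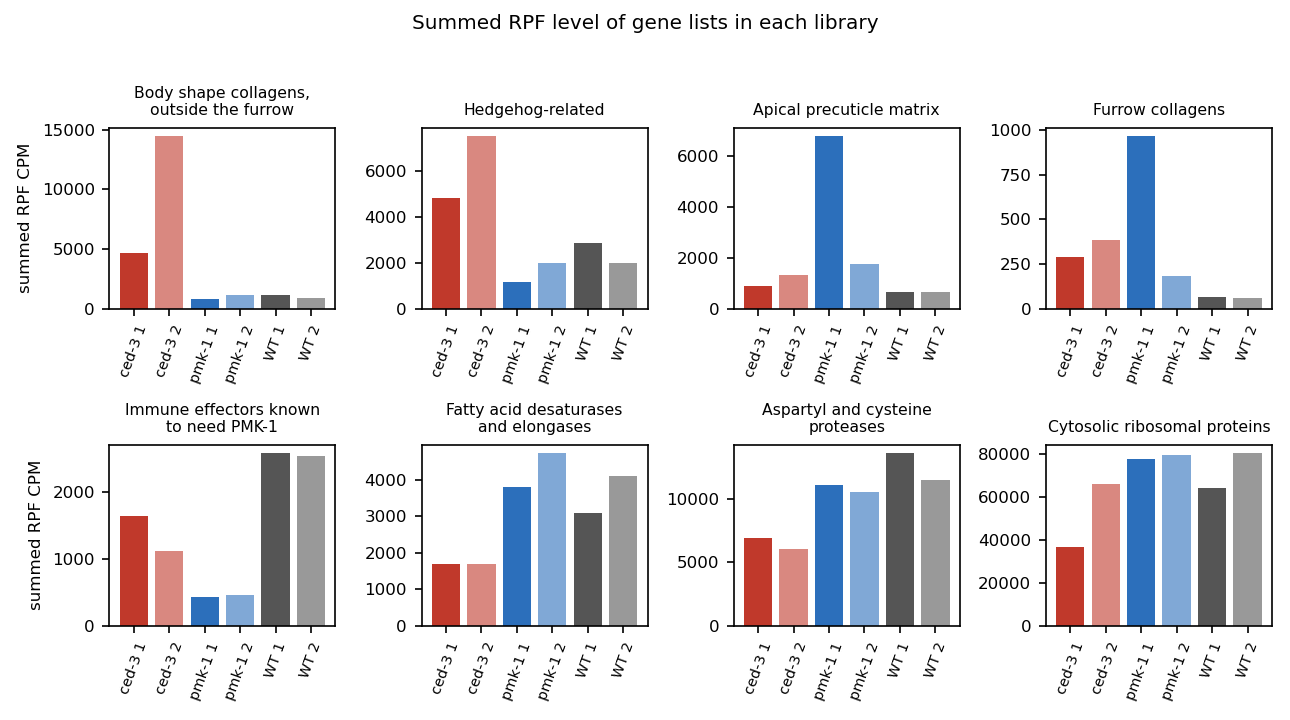
Summed RPF level of 8 gene lists in each library, in CPM, with ced-3 in red, pmk-1 in blue and WT in grey and replicate 2 in the paler shade. Body shape collagens are highest in ced-3 replicate 2 (14462 CPM) and precuticle genes in pmk-1 replicate 1 (6753 CPM). Among these lists the furrow collagens alone have sums that overlap between the mutants.

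The pharynx has a lining that is renewed at each moult and holds chitin. Called genes of the chitin list and of the abu and pqn list were all higher in ced-3, while pharynx markers were mixed. Of 5 chitin synthases and chitinases 4 were higher in ced-3, with a median of 3.36 that was 2.50 without ced-3 replicate 2 and 2.31 when pmk-1 replicate 1 was left out too. The chitin synthase chs-2 had 39.4 and 122 CPM in ced-3, against 2.17 and 4.32 CPM in pmk-1 and 7.67 and 4.66 CPM in WT (log2 fold 4.62 ± 0.70, and 3.58 without ced-3 replicate 2) and the chitinase cht-1 had 9.58 and 17.7 CPM in ced-3, against 0.434 and 0.703 CPM in pmk-1 and 0.673 and 1.48 CPM in WT (log2 fold 4.54 ± 0.54). Of 57 glutamine- and asparagine-rich abu and pqn genes, several of which are expressed in the pharynx, 12 were higher and none lower (median 0.59). The gene abu-13 had 77.7 and 169 CPM in ced-3, against 5.85 and 8.94 CPM in pmk-1 and 10.5 and 6.56 CPM in WT (log2 fold 4.05 ± 0.50). Of 17 pharynx markers 3 were higher and 2 lower (median 0.11), against 6.05% and 2.56% of all genes tested. The higher ones included the gland genes phat-1 and phat-2, with phat-2 at 161 and 450 CPM in ced-3, against 5.74 and 21.4 CPM in pmk-1 and 38.2 and 19.6 CPM in WT. Replicate 2 of ced-3 was the highest library for each of these named genes. In the same marker list myo-1, a myosin of pharyngeal muscle, was lower, with 509 and 633 CPM in ced-3, against 1080 and 1026 CPM in pmk-1 and 847 and 739 CPM in WT (log2 fold -0.88 ± 0.18).

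Of 14 desaturases and elongases, the enzymes that build long and unsaturated fatty acids, 7 were called, all lower in ced-3, and the median was -1.66. The desaturase fat-3, which acts in the synthesis of polyunsaturated fatty acids, had 53.9 and 57.7 CPM in ced-3, against 210 and 207 CPM in pmk-1 and 113 and 166 CPM in WT (log2 fold -1.90 ± 0.21). The elongase elo-1 of the same pathway had 166 and 157 CPM in ced-3, against 425 and 423 CPM in pmk-1 and 375 and 369 CPM in WT (log2 fold -1.39 ± 0.14). The elongases of branched-chain fatty acids elo-5 and elo-6 had log2 folds of -1.80 ± 0.21 and -1.90 ± 0.21, with elo-6 at 198 and 152 CPM in ced-3, against 649 and 653 CPM in pmk-1 and 471 and 591 CPM in WT. In these genes both ced-3 libraries lay below WT, and both pmk-1 libraries lay above it. The fatty acid synthase fasn-1 had 1085 and 940 CPM in ced-3, against 5001 and 2871 CPM in pmk-1 and 1931 and 2281 CPM in WT (log2 fold -1.96 ± 0.30, adjusted p = 0.0344). The list median lay between -1.37 and -1.81 over the fits that left out 1 mutant library.

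Called genes of other metabolic families formed smaller shares of their lists. Of 60 glucuronosyltransferases, which conjugate small lipophilic compounds, 11 were lower and 2 higher (median -0.50), with ugt-63 at 8.52 and 6.5 CPM in ced-3, against 29 and 39.4 CPM in pmk-1 and 21.7 and 36.1 CPM in WT (log2 fold -2.19 ± 0.32). Of 56 cytochrome P450 genes edgeR called 1, against 8.61% of all genes tested. At an unadjusted p below 0.05 there were 17 of the 56, against 3764 of all 12633 genes. DESeq2 called 2 higher and 6 lower, against 1916 of all 12633 in either direction. The gene called by edgeR was cyp-25A2, which was lower (11.18 and 11.6 CPM in ced-3, against 41.5 and 30.8 CPM in pmk-1). The glyoxylate cycle enzyme icl-1, which lets fat be turned into sugar, was higher, at 616 and 900 CPM in ced-3, against 250 and 290 CPM in pmk-1 and 374 and 315 CPM in WT (log2 fold 1.49 ± 0.23). The hexokinase hxk-1, at the entry of glycolysis, was higher (log2 fold 1.02 ± 0.19), while the phosphoglycerate mutase ipgm-1 further down was lower (-0.75 ± 0.15), and the 18 glycolysis genes had a median of -0.33. In methyl group metabolism the S-adenosylmethionine synthase sams-1 had 1298 and 841 CPM in ced-3, against 2518 and 2428 CPM in pmk-1 and 2543 and 2351 CPM in WT (log2 fold -1.21 ± 0.24), and ahcy-1, which removes the product of methylation, had 3740 and 4146 CPM in ced-3, against 8527 and 7084 CPM in pmk-1 and 7823 and 6791 CPM in WT (log2 fold -0.99 ± 0.19).

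Of 19 aspartyl and cathepsin B-like cysteine proteases, many of which digest food in the gut, 5 were lower in ced-3, 1 was higher and 13 were not called (median -0.70). The aspartyl protease asp-1 had 1230 and 1143 CPM in ced-3, against 2417 and 2538 CPM in pmk-1 and 3533 and 2853 CPM in WT (log2 fold -1.06 ± 0.18). The cysteine protease cpr-1 had 328 and 259 CPM in ced-3, against 801 and 602 CPM in pmk-1 and 494 and 439 CPM in WT (log2 fold -1.26 ± 0.22). For both, ced-3 worms were the lowest genotype, and pmk-1 worms were below WT for asp-1 and above WT for cpr-1. Intestine markers moved in part: of 19 tested, 4 were lower and 1 higher, and their summed level was 6800 and 5398 CPM in ced-3, against 9533 and 9458 CPM in pmk-1 and 11983 and 10613 CPM in WT. Of the 21 genes of that list end-3 had 0 counts in the mutant footprints. The proteases asp-1 and cpr-1 also belong to this list, so they are among its lower genes and their levels are part of its sum. The gut filament gene ifb-2 (log2 fold -1.36 ± 0.24) and the peptide transporter pept-1 (-0.89 ± 0.15) were lower too. Log2 folds of the list ran from -1.36 to 3.15. The part of gut content in the protease, immune and fatty acid results was not tested.

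**Figure D3:**
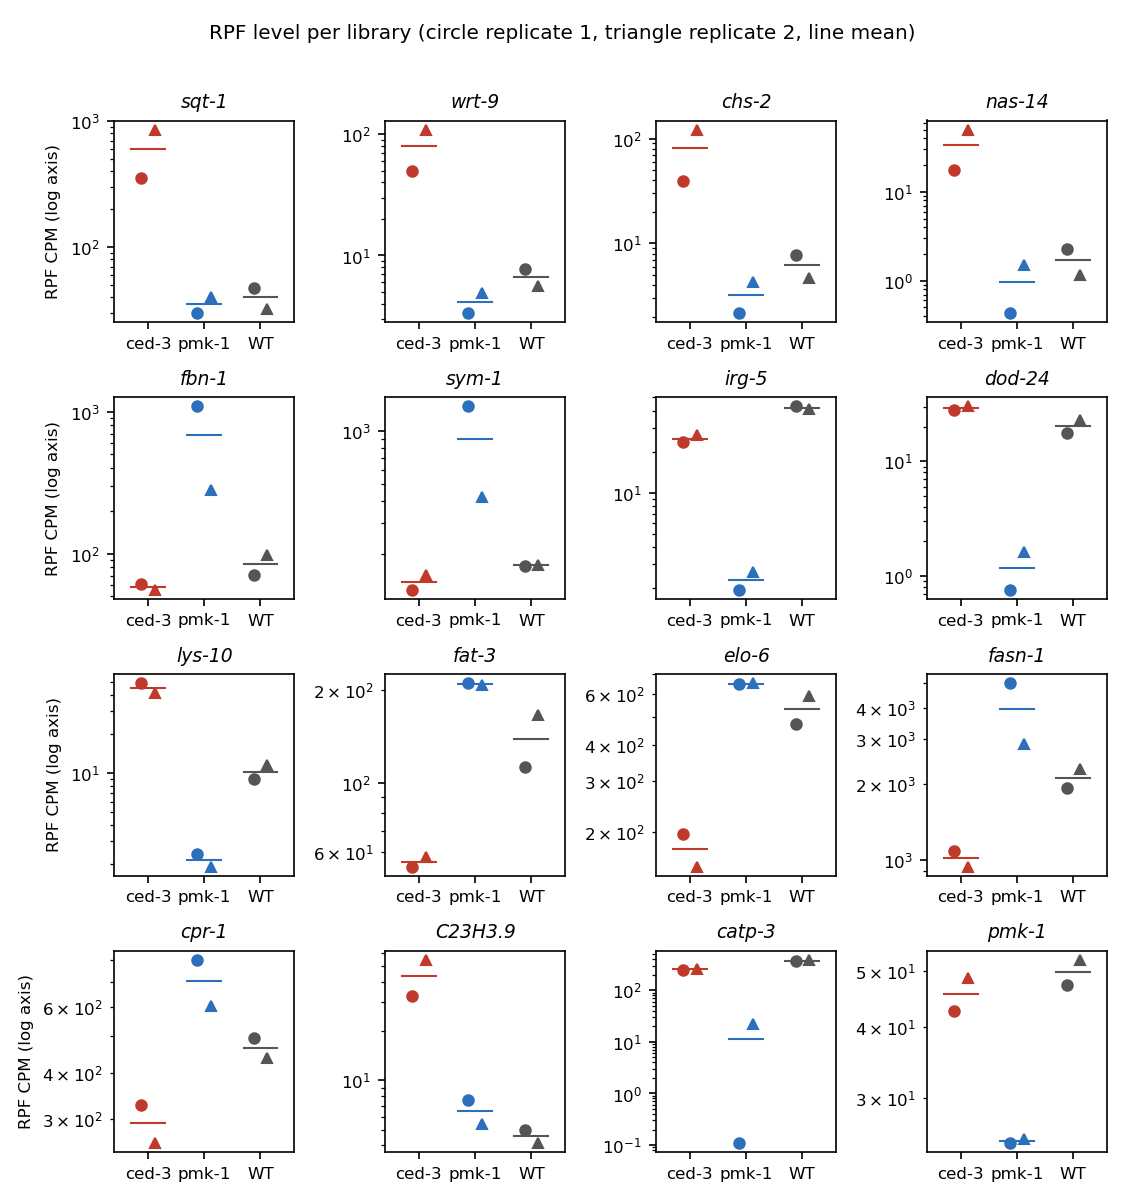
RPF level of 16 genes in each library, in CPM on log axes that differ between panels, with circles for replicate 1, triangles for replicate 2 and a line at the mean of each genotype. Matrix genes such as sqt-1 are high in ced-3, fbn-1 and sym-1 are high in pmk-1 with its replicates apart, immune genes are low in pmk-1, and fatty acid enzymes are low in ced-3.

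Some chaperones of several compartments were lower in ced-3, while most did not pass the test. Of 20 mitochondrial chaperones and proteases 6 were lower and none higher (median -0.56). The Hsp70 of mitochondria, hsp-6, had 1163 and 954 CPM in ced-3, against 2206 and 1915 CPM in pmk-1 (log2 fold -0.96 ± 0.18), and their chaperonin, hsp-60, had 1710 and 1642 CPM in ced-3, against 3212 and 2831 CPM in pmk-1 (log2 fold -0.85 ± 0.16). In the endoplasmic reticulum, 3 of 22 stress genes were lower (median -0.37), among them the Hsp70 hsp-3 (log2 fold -0.95 ± 0.19) and the Hsp90 enpl-1 (-1.12 ± 0.23). In the cytosol 2 of 13 heat shock proteins were lower, and hsp-90 had 2895 and 3005 CPM in ced-3, against 5402 and 5291 CPM in pmk-1 and 4884 and 4282 CPM in WT (log2 fold -0.86 ± 0.16). The 8 subunits of the CCT chaperonin, which folds actin and tubulin, had both ced-3 libraries below both pmk-1 libraries in every case, as had 31.4% of all genes tested, but edgeR and DESeq2 called none of them, with 6 at an unadjusted p below 0.05 (median -0.44).

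Differences in the translation machinery were small, and most folds were negative. All 80 tested genes of cytosolic ribosomal proteins had a negative log2 fold, from -0.92 to -0.11 with a median of -0.58, and 75 had both ced-3 libraries below both pmk-1 libraries, as had 31.4% of all genes tested. None was called by edgeR and 4 were called by DESeq2, all lower, with 15 at an unadjusted p below 0.05. The summed level was 36751 and 65932 CPM in ced-3, against 77524 and 79259 CPM in pmk-1 and 63951 and 80123 CPM in WT. This difference came with a wide gap between the ced-3 replicates: the median was -0.22 if ced-3 replicate 1 was left out, and -1.1 if ced-3 replicate 2 was, when 54 of the genes were called. The mRNA of the same genes had a median of -0.20 with all libraries. Mitochondrial ribosomal proteins, with 68 of 69 genes not overlapping and lower against the same 31.4%, had a median of -0.43 that lay between -0.34 and -0.50 without any 1 mutant library, and 2 were called. Of 47 translation factors 46 had a negative fold and 2 were lower, including eef-1A.2, which delivers aminoacyl-tRNA to the ribosome and had 1553 and 1742 CPM in ced-3, against 3655 and 3155 CPM in pmk-1 and 3156 and 2889 CPM in WT (log2 fold -1.05 ± 0.17). None of 32 aminoacyl-tRNA synthetases was called by edgeR, with 19 at an unadjusted p below 0.05 and 9 called lower by DESeq2 (median -0.54). The proteasome, measured in the same libraries, had a median of 0.02 over 32 genes, with none called by edgeR or DESeq2 and none at an unadjusted p below 0.05.

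Genes on the mitochondrial genome stood apart between footprints and mRNA. The 8 listed respiratory chain genes had a median RPF log2 fold of 1.61 and a median mRNA log2 fold of -0.32. EdgeR called none in RPF, DESeq2 called 2 higher and 6 were at an unadjusted p below 0.05. The cytochrome oxidase gene ctc-2 had 10.9 and 3.79 CPM in ced-3, against 1.73 and 1.41 CPM in pmk-1 and 7.67 and 9.42 CPM in WT (log2 fold 2.21 ± 0.56, adjusted p = 0.062). The summed RPF level was 127 and 45.1 CPM in ced-3, against 23.6 and 35 CPM in pmk-1 and 76.8 and 131 CPM in WT, so the ced-3 libraries were far apart, and the RPF median was 0.77 without ced-3 replicate 1. In mRNA the sum was 11748 and 10521 CPM in ced-3, against 13713 and 15335 CPM in pmk-1. These genes were thus a far smaller share of RPF than of mRNA counts, and their RPF folds rest on low levels. Nuclear encoded genes of the respiratory chain had a median of -0.33 over 46 genes, of which 2 were lower.

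Genes of dividing cells were called higher at about the share of all genes (6.05%), but most of them lay above. Both ced-3 libraries were above both pmk-1 libraries for 26 of 31 histone genes, against 31.3% of all genes tested. The same held for 27 of 33 genes of DNA replication and cell division. At an unadjusted p below 0.05 by edgeR there were 16 and 17, against 3764 of all 12633 genes. DESeq2 called 4 and 6 higher. All 31 tested histone genes had a positive log2 fold (median 0.52), and 2 of them were higher, his-3 and his-4. Of 33 genes of DNA replication and cell division 2 were higher (median 0.52), the helicase subunit mcm-2 with 145 and 181 CPM in ced-3, against 67.7 and 94.7 CPM in pmk-1 and 109 and 97.7 CPM in WT (log2 fold 1.00 ± 0.22) and the ribonucleotide reductase rnr-1 with 219 and 310 CPM in ced-3, against 123.02 and 143 CPM in pmk-1 and 174 and 144 CPM in WT (log2 fold 0.99 ± 0.22). Germline markers had a median of 0.06, with none of 21 called by edgeR, 1 by DESeq2 and 2 at an unadjusted p below 0.05. Their summed level was 845 and 841 CPM in ced-3, against 935 and 818 CPM in pmk-1 and 884 and 846 CPM in WT, and overlapped. None of 21 body wall muscle markers (median -0.16) or 24 neuron markers (median 0.09) was called by edgeR. At an unadjusted p below 0.05 there were 0 and 2, and DESeq2 called 0 and 1.

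The largest differences lay partly in genes outside these groups. C07A9.12 had no RPF count in either ced-3 library, against 346 counts over the pmk-1 libraries, which puts it at least 101-fold lower in ced-3, taking 3 counts over the group as the floor. Its level was 0 and 0 CPM in ced-3, against 17.9 and 18.2 CPM in pmk-1 and 15.7 and 16.3 CPM in WT, so its footprints were missing in ced-3 alone. The ABC transporter gene pgp-6 had 5.19 and 3.57 CPM in ced-3, against 32.5 and 67.2 CPM in pmk-1 and 322 and 315 CPM in WT (log2 fold -3.51 ± 0.41). Both mutants were thus far under WT for pgp-6, and ced-3 the furthest. The noncoding RNA gene Y73B3A.23 had 261 and 76.8 CPM in ced-3, against 0.108 and 2.51 CPM in pmk-1 and 79.4 and 38.5 CPM in WT (log2 fold 6.96 ± 1.17), with the replicates of each mutant far apart. The fungus-induced gene fip-6 had 199 RPF counts over the ced-3 libraries and 1 over the pmk-1 libraries, a ratio of 228 (95% interval 40.4 to 9048, counting error only). The insulin-like gene ins-33 had 12.78 and 10.8 CPM in ced-3, against 85.5 and 55.1 CPM in pmk-1 and 27.4 and 27.6 CPM in WT (log2 fold -2.57 ± 0.25), and was lowest in ced-3 and highest in pmk-1.

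The mRNA of the same worms was compared in the same way and gave 1247 called genes of 13536 (9.21%), 909 higher in ced-3 (6.72%) and 338 lower (2.5%). Of the genes called higher in RPF 591 were also higher in mRNA, which is 77.4% of the RPF genes and 65.0% of the mRNA genes. Of those called lower 171 were shared, 52.8% of the RPF genes and 50.6% of the mRNA genes. The RPF and mRNA folds correlated at 0.937 across 12468 genes, which share worms and are not independent replicates. The median fold of the genes called higher in RPF was 3.04 in RPF and 2.76 in mRNA, and that of the genes called lower was -1.11 in RPF and -0.88 in mRNA.

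**Figure D4:**
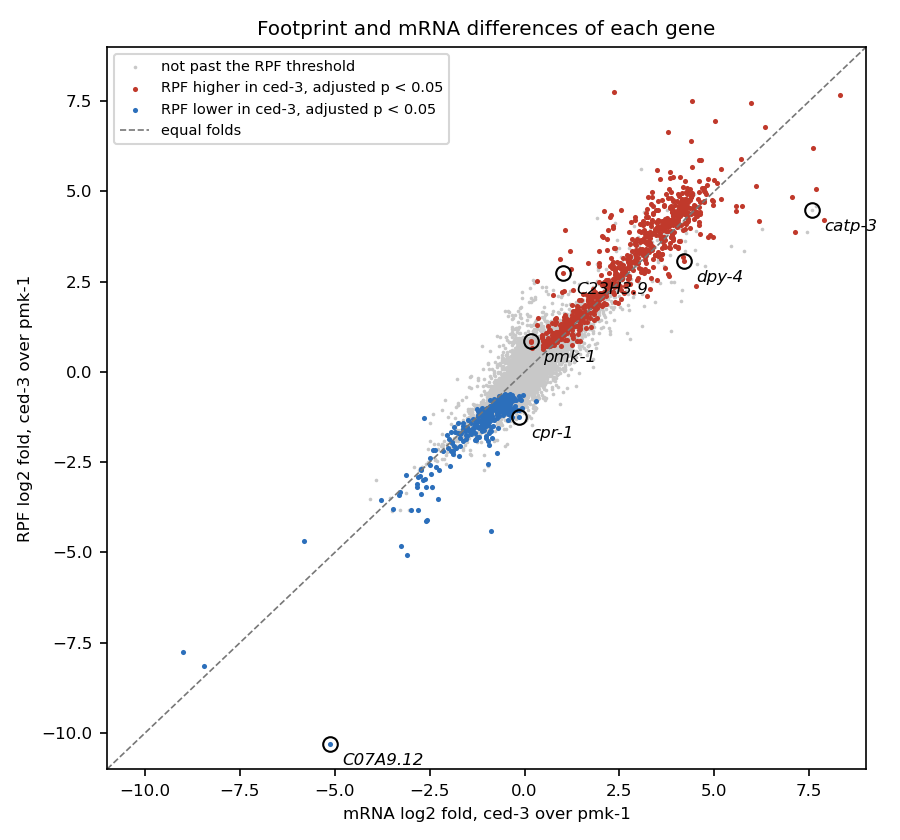
RPF log2 fold against mRNA log2 fold of ced-3 over pmk-1, 1 point per gene tested in both assays, with genes called in RPF in red (higher) and blue (lower) and 6 genes circled; the dashed line marks equal folds. Points lie along the line (correlation 0.937), with cpr-1 and pmk-1 near 0 in mRNA but not in RPF. The difference between the assays passed the paired test for cpr-1 and not for pmk-1.

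Whether the 2 assays differed was tested as the change of RPF beyond that of mRNA (translation efficiency, TE). No gene of 13698 passed with libraries taken as independent, by edgeR or by DESeq2, with 251 and 167 genes at an unadjusted p below 0.05. With the RPF and mRNA library of each worm sample paired, 4 passed (0.0292%): catp-3, C23H3.9, cpr-1 and dpy-4. Footprints of the protease cpr-1 were lower in ced-3 while its mRNA, 523 and 418 CPM in ced-3, against 584 and 458 CPM in pmk-1, overlapped between the mutants, and its paired TE log2 fold was -1.04 ± 0.16 (adjusted p = 0.0446). C23H3.9 had 32.6 and 54.3 CPM in ced-3, against 7.59 and 5.43 CPM in pmk-1 and 4.98 and 4.13 CPM in WT in RPF and 16.5 and 24.3 CPM in ced-3, against 11 and 9.123 CPM in pmk-1 in mRNA, so that its footprints were further apart than its mRNA, with a paired TE log2 fold of 1.78 ± 0.21 (adjusted p = 0.00215). The collagen dpy-4 was higher in both assays, with 1038 and 3036 CPM in ced-3, against 161 and 327 CPM in pmk-1 in RPF and 364 and 842 CPM in ced-3, against 19.1 and 46.7 CPM in pmk-1 in mRNA, and a paired TE log2 fold of -1.19 ± 0.19 (adjusted p = 0.0484). The cation-transporting ATPase gene catp-3 was high in ced-3 and WT and low in pmk-1, with 250 and 262 CPM in ced-3, against 0.108 and 22.7 CPM in pmk-1 and 366 and 390 CPM in WT in RPF and 175 and 180 CPM in ced-3, against 0.0675 and 1.71 CPM in pmk-1 in mRNA. Its pmk-1 libraries held 1 footprint in replicate 1 and lay far apart, and its paired TE log2 fold of -3.06 ± 0.26 (adjusted p = 5.25e-05) rests on them.

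Groups of genes also differed between the assays in their medians. The paired TE log2 fold had a median of 0.06 over all genes, of -0.82 over the immune effectors, -0.49 over the gut proteases and -0.38 over cytosolic ribosomal proteins, and of 1.99 over the mitochondrial respiratory chain genes. These group medians were not tested. Without ced-3 replicate 1 the RPF median was -0.22 for cytosolic ribosomal proteins, whose mRNA median was -0.20 with all libraries. For the mitochondrial genes the RPF median was then 0.77, against 1.61 with all libraries. The mRNA and TE medians of these lists without that worm sample were not taken, so the values do not show how TE would change. Immune effectors had a median of 3.75 in mRNA, where 18 were called, and of 2.67 in RPF. The gut proteases had a median of -0.15 in mRNA and of -0.70 in RPF. For fatty acid desaturases and elongases the medians were -0.87 in mRNA and -1.66 in RPF, with 7 genes called lower in each assay, but the median of their paired TE log2 folds was -0.27. Among them fat-3 had log2 folds of -0.95 ± 0.28 in mRNA and -1.90 ± 0.21 in RPF, and elo-1 of -1.14 ± 0.23 and -1.39 ± 0.14. Neither gene passed in TE. Among cuticle genes the 2 assays were closer, with medians of 3.64 in mRNA and 3.96 in RPF for body shape collagens and of 2.80 and 3.18 for hedgehog-related genes.

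Exons of fbn-1, sym-1, dpy-6, wrt-2, grl-15, abu-13, cht-1, bli-5, elo-5, hsp-90, enpl-1, mcm-2, his-4, ces-1 and phat-2 overlap those of a gene on the other strand, and mlt-10, ctc-2 and dpy-10 overlap genes on their own strand. Whether counting used strand is not given in the sources used here, so reads of these genes and their neighbours cannot be told apart. The same holds for near-identical copies such as the histone genes.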

How the data were processed

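The deposited table held raw read counts per gene, whole numbers that the authors made for each library without normalization, as the values show. Bowtie2, STAR, HTSeq and the build WBcel235 stand in the submitters' processing notes, without versions or roles. The annotation release, use of strand, read length filters and treatment of reads with several matches are not given in the sources used here. Of 46778 genes, 46603 matched the reference annotation of WBcel235 by identifier, which gave the coordinates, and 43818 had a name.

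The fit of the 6 RPF libraries used edgeR 4.0.16 in R 4.3.3: TMM scaling, filterByExpr (minimum count 10, minimum total 15), robust glmQLFit and glmQLFTest. Its p-values were adjusted by Benjamini and Hochberg's method across the tested genes, and the contrast was ced-3 minus pmk-1. The mRNA libraries were fitted likewise, and TE was the interaction of assay and genotype over all 12 libraries. The SE is the size of the fold over the square root of F. Values printed per library are CPM on TMM-scaled library sizes. The steps were also run on simulated counts with the same spread for every gene and library and with libraries drawn independently. These data differ in both, so that run does not measure error rates here.

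Libraries of a replicate number come from the same worms per the labels, and their deviations correlated at 0.694 for the ced-3, 0.738 for the pmk-1 and 0.200 for the WT worms, so the paired TE fit is given beside the unpaired one. RPF replicates differed beyond counting noise, and none was merged. The alternatives were RLE factors, DESeq2 1.42.0, no filter, a replicate block, the mutants alone, no robust option and leaving out libraries. The 55 gene lists, the members and the tests were chosen with earlier results of these data known. Named genes were ced-3 and pmk-1, the 15 largest folds per direction among called genes that averaged 5 CPM or more and did not overlap, up to 4 called members per list by smallest p (or the member with the smallest p), the 10 most abundant called genes and at most 5 TE calls per direction, 168 in all, of which some are printed.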

Additional observations from a re-analysis of the deposited data

Results flagged for a closer look

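For 4 genes the difference between ced-3 and pmk-1 footprints was not the same as that between their mRNA, by the test of this difference with the 2 libraries of each worm sample paired. The paired TE log2 fold was -3.06 ± 0.26 for catp-3 and 1.78 ± 0.21 for C23H3.9. It was -1.04 ± 0.16 for cpr-1 and -1.19 ± 0.19 for dpy-4. No gene passed with the libraries unpaired, where the unadjusted p of these genes lay between 0.00176 and 0.268.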

How the results depend on the processing

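The RPF count of 1088 called genes was 1077 with RLE factors, 1246 without the robust option, 1916 with DESeq2, 1713 without the filter on low counts, 496 with the replicate block and 0 in a fit of the mutants alone. Leaving out 1 library gave 0 to 1548, with 0 without pmk-1 replicate 1 or either WT library, 636 without ced-3 replicate 2 and 692 without pmk-1 replicate 2. With neither ced-3 replicate 2 nor pmk-1 replicate 1 it was 1171. The mRNA count of 1247 was 2079 with DESeq2, 564 with the replicate block, 0 with the mutants alone and 3 to 1821 without 1 library. The TE count of 0 was 4 with the worm sample as a replicate block, 0 to 1 without 1 library and 1 without ced-3 replicate 2 and pmk-1 replicate 1. Between genotypes, RPF deviations by replicate number correlated at 0.10 for ced-3 with pmk-1, 0.01 for ced-3 with WT and -0.10 for pmk-1 with WT. Among genes called higher, replicate 2 was above replicate 1 for 82.1% in ced-3 and 78.4% in pmk-1, but for 26.96% in WT. These values cannot decide whether replicate numbers pair the genotypes, so the replicate block is given as an alternative. A group left with 1 library is assumed to vary like the others. Of the 168 named genes dpy-10 alone turned, with a log2 fold of -1.36 with all libraries, a range of -2.09 to 0.27 without 1 library, 0.27 of these without pmk-1 replicate 1 and 0.13 without ced-3 replicate 2 and pmk-1 replicate 1. Of the called genes, 335 moved by over 1.5-fold without ced-3 replicate 2; the cause was not tested. Depth limits genes near the floor of 0.301 to 0.404 CPM, where differences are not detectable.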

Other observations

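Several further families were read in the same footprints, where 6.05% of all genes tested were higher in ced-3 and 2.56% were lower. Of 107 neuropeptide and insulin genes outside the antimicrobial group 6 were higher in ced-3 and 1 lower, with a median log2 fold of 0.42, and 71 had both ced-3 libraries above both pmk-1 libraries (31.3% of all genes tested). Of 183 nuclear hormone receptors 3 were higher and 2 lower (median 0.12), and of 45 transthyretin-related genes 3 were higher (median 0.21). Of 17 targets of the insulin-regulated factor DAF-16 4 were higher and 1 lower (median 0.67). Of 29 acyl-CoA synthetases and dehydrogenases 3 were higher and 2 lower (median 0.00).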
